A study of Mus musculus with 15 samples.

Results

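The genes described here are 10 members of the YAP and TAZ pathway, taken by gene symbol from a table of 49585 mouse genes: the target genes Ctgf, Cyr61, Ankrd1, Amotl2, Thbs1, Ajuba and Lats2, the coactivator genes Yap1 and Wwtr1, and the DNA-binding partner Tead1. All 10 symbols were found, each once. RNA-seq was performed on 15 libraries in 5 groups of 3, all of cells from the mouse strain C57BL/6. The first group was 005, a mouse glioma stem cell line kept in serum-free stem cell medium. Tumor-derived endothelial cells (TDECs) were obtained from 005 in the endothelial medium EGM-2 BulletKit at 1% O2, and were collected on day 2 or, untreated, on day 5. The label of the untreated TDECs names no day. Day 5 comes from the results section of the paper. A further group of TDECs received 5 µM sertraline, an antidepressant that blocks serotonin uptake, on day 5 and was collected 24 h later, so that it may be 1 day older than the untreated cells. The last group was mouse brain microvascular endothelial cells (MBMECs), purchased as primary cells and grown in another medium that contained serum, at an oxygen level the labels do not give. Origin and medium therefore both differed between TDECs and MBMECs, medium differed between TDECs and 005, and the oxygen level of the 005 cultures is not given either. For 005 and day 2 TDECs no source says that replicates came from separate cultures, and their p-values may measure technical spread only. The paper names biological replicates only for TDECs with and without sertraline. It gives only the number 3 for MBMECs, so the same limit may hold for them. The titles of the treated libraries and of the MBMEC libraries lack a prefix that the titles of the other 9 libraries carry. A difference in handling, if there was one, cannot be told apart from the treatment or the cell type.

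YAP and TAZ (the protein of Wwtr1) are transcriptional coactivators that move between cytoplasm and nucleus and bind DNA through the TEAD factors. The Hippo kinases, the MST kinases and then LATS1 and LATS2, phosphorylate them and keep them out of the nucleus, whereas cell spreading, a stiff matrix and tension in the actin cytoskeleton favor their entry. In endothelial cells both coactivators take part in vessel growth and barrier formation, and in glioma they have been linked to a mesenchymal state. Their activity is set largely at the protein level, which RNA-seq does not measure, so the transcripts of target genes are read here as transcript levels alone.

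TEAD factors recognize the bases CATTCC, which read GGAATG on the other strand. Promoters from RefSeq (GRCm38.p6, 250 bases before to 50 bases after the start) were matched for 7 of the 10 genes: Cyr61, Ankrd1, Amotl2, Ajuba, Lats2, Yap1 and Wwtr1. Each of the 7 held the motif in at least 1 promoter, and Ajuba and Ankrd1 held 2 copies. Among all 27025 genes with a promoter, 16.6% held it on either strand, and among all 32851 promoters 14.7%. Lists described below were above these shares too. The motif was held by 42.9% of 21 matched Hippo kinases and regulators and 46.7% of 15 genes of a target signature, lists that include members. Of 15 matched SRF and MRTF targets, a list without members, 33.3% held it. Promoters of Ctgf, Thbs1 and Tead1 were not matched. A match describes letters, not a bound site. The promoters of 3 target genes with different patterns of expression are printed whole, 5′ to 3′ on the strand of the gene, with the motif in capitals. They are Cyr61 (chr3:145649936-145650235, minus strand), Amotl2 (chr9:102717554-102717853, plus strand) and Ankrd1 (chr19:36119795-36120094, minus strand).

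Cyr61: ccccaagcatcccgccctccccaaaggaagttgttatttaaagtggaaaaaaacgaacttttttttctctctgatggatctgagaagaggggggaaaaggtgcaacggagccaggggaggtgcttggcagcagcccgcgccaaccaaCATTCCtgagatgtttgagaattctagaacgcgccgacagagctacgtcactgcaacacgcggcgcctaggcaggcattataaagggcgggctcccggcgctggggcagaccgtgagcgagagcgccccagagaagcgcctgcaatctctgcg
Amotl2: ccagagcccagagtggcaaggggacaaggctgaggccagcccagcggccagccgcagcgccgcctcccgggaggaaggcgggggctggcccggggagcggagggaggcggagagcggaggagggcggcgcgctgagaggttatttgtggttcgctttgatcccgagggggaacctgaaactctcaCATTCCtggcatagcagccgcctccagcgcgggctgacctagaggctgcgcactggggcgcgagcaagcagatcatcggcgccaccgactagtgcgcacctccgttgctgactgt
Ankrd1: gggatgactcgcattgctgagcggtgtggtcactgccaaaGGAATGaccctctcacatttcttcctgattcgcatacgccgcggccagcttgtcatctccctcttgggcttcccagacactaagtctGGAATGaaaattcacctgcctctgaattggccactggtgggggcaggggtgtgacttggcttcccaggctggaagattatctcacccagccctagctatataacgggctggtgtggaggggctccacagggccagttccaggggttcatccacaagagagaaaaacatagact

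The first motif base lay 103 bases before the start in Cyr61 (-103), at -65 in Amotl2, and at -210 and -123 in Ankrd1. For the other genes 30 bases around the motif show how alike the surroundings are: Ajuba at -186 and -164, Lats2 at 5 bases after the start, Yap1 at -141, and Wwtr1 at -136 from 1 annotated start and -170 from the other. A second Lats2 promoter lacked the motif. Both orientations of the motif occurred.

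Ajuba, first copy: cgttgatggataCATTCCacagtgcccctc
Ajuba, second copy: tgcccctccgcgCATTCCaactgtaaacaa
Lats2: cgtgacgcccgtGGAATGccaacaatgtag
Yap1: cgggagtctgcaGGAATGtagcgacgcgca
Wwtr1: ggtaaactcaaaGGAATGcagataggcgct

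The libraries held 11283680 to 17093061 counts. Levels are given as CPM, counts scaled to library size with TMM, which corrects for differences in RNA composition, over all 15 libraries. Fold changes are on the log2 scale from edgeR's quasi-likelihood test on the 6 libraries compared, with p adjusted over all genes tested. A call had a pair of conditions: the adjusted p had to be under 0.05, and the log2 fold change had to lie above 1 or under -1 (2-fold). "Rose" and "fell" are used for called genes. One library stood apart in each of 3 groups: replicate 3 of 005, replicate 3 of day 2 TDECs and replicate 2 of the sertraline group. Their chi-square per gene against the other libraries of the group was 11.2 to 11.4, 11.1 to 11.7 and 6.97 to 7.27, where the remaining pairs of those groups gave 2.15, 2.50 and 2.28. Replicate 2 of MBMECs differed less, at 4.36 and 4.94, where the remaining MBMEC pair gave 2.79. The summed level of 10 endothelial markers was 4.24 to 7.14 CPM in 005, 6.89 to 7.74 CPM in day 5 TDECs, 5.98 to 14.4 CPM in day 2 TDECs and 6.66 to 10.8 CPM with sertraline. In MBMECs it was 8599 to 8759 CPM. The defining markers Tie1 and Cldn5 had no counts in untreated day 5 TDECs, so the label endothelial was not borne out by these transcripts for TDECs. Of the same markers, Kdr was called higher on day 5 against 005 (log2 fold change 1.72, adjusted p = 2.29e-04), at 3.96 CPM, against 613 CPM in MBMECs. Pecam1 was lower than in 005 (-0.90, adjusted p = 0.0385). The paper based the label on protein staining for CD31 and CD34, which was not examined here. Of 7 neural and glioma stem cell markers, 4 had no counts in MBMECs (Sox2, Olig2, Sox9 and Fabp7). The 7 summed to 1489 to 1558 CPM in day 5 TDECs, against 2359 to 2619 CPM in 005. On day 5, 6 of them lay below the 005 range. Prom1 went the other way and was called higher, with 109.8 CPM on day 5, against 25.7 CPM in 005. Mural cell markers summed to 3.49 to 4.72 CPM in MBMECs and 155 to 202 CPM elsewhere, fibroblast markers to 13.8 to 52.4 CPM and microglia and leukocyte markers to 7.02 to 10.5 CPM over all groups. Most of the mural sum outside MBMECs came from Notch3 and Cspg4, with means of 82.5 and 89.5 CPM in 005. Notch3 alone had 162 CPM in day 5 TDECs. Rgs5, Kcnj8, Abcc9 and Des had means of at most 1.38 CPM in every group. The fibroblast sum in 005 was mostly Pdgfra, at 39.7 CPM, while Col1a2, Dcn and Lum had at most 0.217 CPM there. These sums are therefore not read as a mural or fibroblast character. In such bulk samples fewer cells of a type and less RNA per cell cannot be told apart.

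The CCN genes Cyr61 and Ctgf, which encode secreted matrix-associated proteins and are the most used readouts of YAP and TAZ activity, rose on day 2 already. Cyr61 (minus strand, chr3:145646976-145649981) had 8.77, 9.49 and 12.5 CPM in 005, 119.7, 121 and 191 CPM on day 2, and 369, 380.1 and 341 CPM on day 5. The 3 times did not overlap, and each later one lay above the one before. On day 2 Cyr61 was higher than in 005 by 3.79 on the log2 scale (SE 0.20, adjusted p = 2.68e-07), and on day 5 by 5.16 (SE 0.11, adjusted p = 6.92e-12). Day 5 exceeded day 2 by 1.35 (SE 0.15, adjusted p = 1.51e-05). Ctgf (chr10:24595442-24598683, plus strand) was counted 4, 0 and 2 times in the 005 libraries, which is 0.288, 0 and 0.144 CPM. It had 1.96, 2.09 and 4.29 CPM on day 2, and 4.81, 5.01 and 4.48 CPM on day 5. The ranges did not overlap, although Ctgf stayed at a low level throughout. Its log2 fold change against 005 was 4.16 on day 2 (SE 0.64, adjusted p = 4.35e-04) and 4.96 on day 5 (SE 0.44, adjusted p = 8.26e-07), both resting on the 6 counts in 005. Day 5 and day 2 differed in Ctgf by 0.80 (adjusted p = 0.0355), under the 2-fold limit, and by 1.23 (adjusted p = 1.91e-04) without replicate 3 of day 2.

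**Figure D1:**
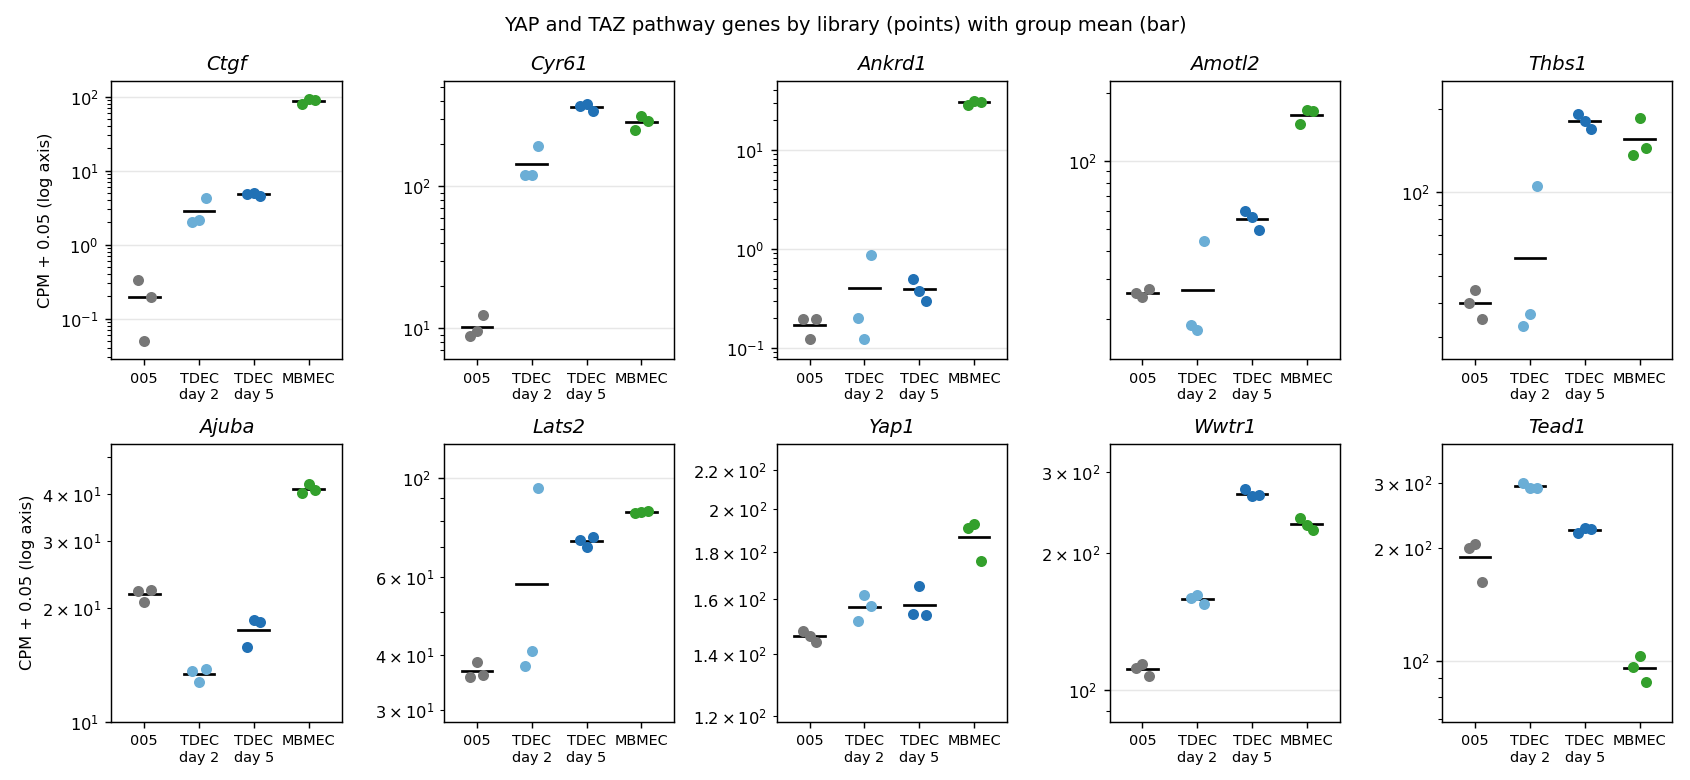
Levels of the 10 genes in 005, day 2 TDECs, day 5 TDECs and MBMECs (CPM plus 0.05, log axes with a range of their own in each panel), with 1 point per library and a bar at the group mean. Cyr61 rose over the time course to 341 to 380.1 CPM on day 5, Ctgf and Ankrd1 were far below MBMECs at every time, and replicate 3 was the highest of the day 2 libraries in Thbs1, Amotl2 and Lats2.

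Thbs1, which encodes the matrix protein thrombospondin-1, an inhibitor of vessel growth, rose between day 2 and day 5. Thbs1 (chr2:118111876-118127133, plus strand) had 39.7, 44.5 and 34.8 CPM in 005, 32.7, 36.2 and 105 CPM on day 2, and 192, 180.1 and 169 CPM on day 5. The day 2 and 005 ranges overlapped, and replicate 3 of day 2 stood between the other day 2 libraries and day 5. Day 5 exceeded 005 by 2.20 on the log2 scale (SE 0.09, adjusted p = 7.54e-10) and day 2 by 1.65 (adjusted p = 1.33e-03). Day 2 and 005 differed by 0.53 (SE 0.35, adjusted p = 0.263), and without replicate 3 of day 2 by -0.22 (adjusted p = 0.167). Amotl2 (chr9:102716672-102733418, plus strand), a target gene whose angiomotin-type protein holds YAP at junctions, had 25.8, 24.8 and 27.0 CPM in 005, 18.6, 17.7 and 44.1 CPM on day 2, and 59.7, 56.6 and 49.3 CPM on day 5. All day 5 libraries lay above the others. The rise was 1.10 against 005 (SE 0.09, adjusted p = 4.22e-07) and 1.06 against day 2 (adjusted p = 5.64e-03). Both lie close to the 2-fold limit: the first was 0.97 by plain library totals, and the second was 0.83 to 0.998 without replicate 1 or 2 of day 2 or replicate 1 of day 5, which ends the call. The direction on day 2 rested on 1 library: Amotl2 differed from 005 by 0.03 with all libraries, and by -0.53 (adjusted p = 4.07e-03) without replicate 3 of day 2.

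Lats2 and Ajuba encode proteins that act on the pathway that controls them. LATS2 is a kinase that phosphorylates YAP and TAZ, and the LIM protein AJUBA binds LATS kinases and limits them. Lats2 (chr14:57642077-57758388, minus strand) had 35.6, 38.5 and 36.1 CPM in 005, 37.7, 40.8 and 94.8 CPM on day 2, and 72.5, 70.1 and 73.5 CPM on day 5. Replicate 3 of day 2 exceeded even day 5, while the other day 2 libraries were near 005. Day 5 lay above 005 without overlap, at a log2 fold change of 0.98 (SE 0.07, adjusted p = 1.12e-07), just under the 2-fold limit. Ajuba (chr14:54567469-54577661, minus strand) ran the other way, with 22.1, 20.7 and 22.3 CPM in 005, 13.6, 12.7 and 13.7 CPM on day 2, and 15.7, 18.5 and 18.2 CPM on day 5. The 3 groups did not overlap and day 2 was lowest, at -0.72 against 005 (adjusted p = 6.34e-04), again under the 2-fold limit. Day 5 differed in Ajuba from 005 by -0.30 and from day 2 by 0.40 (adjusted p = 0.011). Ankrd1 (chr19:36111965-36119844, minus strand), whose ankyrin-repeat protein is abundant in muscle, had 1 or 2 counts in each 005 library, 2, 1 and 10 counts on day 2, and 5, 4 and 3 counts on day 5. It was too low in these groups for the test.

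Of the 9 members tested, 2 were called higher and 0 lower on day 2 against 005, where 5.35% of 15344 genes tested were called higher and 4.48% lower. At an unadjusted p under 0.05, edgeR's test gave 5 members higher and 1 lower, and DESeq2 called 2 higher and 0 lower. Shares of all genes at an unadjusted p were not counted, here or below, so such counts are not read as an excess. Between day 5 and day 2, 3 of 9 were called higher (Cyr61, Amotl2 and Thbs1) and 0 lower, where 11.1% of genes were called higher and 9.35% lower. Without replicate 3 of day 2 the count was 4, with Ctgf added, and the call of Amotl2 was lost without any 1 of the 3 libraries named above. On day 5 against 005, 5 of 9 were called higher and 0 lower, the fifth being Wwtr1 (4 by plain library totals, which lose Amotl2), where 13.1% of genes were called higher and 10.4% lower. Unadjusted, 7 members were higher and 1 lower in that comparison, 6 higher and 1 lower between day 5 and day 2, and DESeq2 called 0 lower in both. The median log2 fold change of the members was 0.53 on day 2 and 1.10 on day 5 against 005, with medians of -0.02 and -0.01 over all genes. These comparisons share libraries, so their counts do not support each other.

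Replicate 3 of day 2 was higher than the other day 2 libraries in 5 of the 6 target genes with a usable level, and near them in Ajuba, the coactivator genes and Tead1. Relative to the mean of replicates 1 and 2, Thbs1 was 3.05-fold, Amotl2 2.42-fold, Lats2 2.41-fold, Ctgf 2.12-fold and Cyr61 1.59-fold. Yap1 stood at 1.00, Wwtr1 at 0.966, Tead1 at 0.982 and Ajuba at 1.04 times that mean. On a log2 scale with 0.5 CPM added, 3 of 9 members were above 1, where 0.716% of 14662 genes were. Of the 16 signature genes beyond the members that had a usable level, 8 were above the mean of replicates 1 and 2 and 8 below it, with a median log2 ratio of 0.04. Dock5, a guanine nucleotide exchange factor, had 333 counts in replicate 3, against 132 and 152 counts in replicates 1 and 2. Crim1, a transmembrane protein that binds growth factors, had 102 CPM, against 42.2 and 39.6 CPM. At the low end, Gadd45a stood at 0.698, F3 at 0.837 and Arhgef17 at 0.842 times the mean. Of 15 cytoskeletal targets of SRF and MRTF, a list described below, 14 were above the mean of replicates 1 and 2 and 1 below it. Their median log2 ratio was 0.26, and 48.6% of all genes were above that mean. Among these targets, the actin gene Acta2 was counted 29 times in replicate 3, against 7 and 6 times. In that library the endothelial gene Kdr was 2.56-fold and Pecam1 1.92-fold, and the stem cell genes Olig2 0.639-fold and Sox9 0.652-fold relative to the same mean. Of the fibroblast genes, Col1a1 was 1.94-fold, Col3a1 0.901-fold and Pdgfra 0.675-fold. The part of these other changes in the high target levels was not tested.

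**Figure D2:**
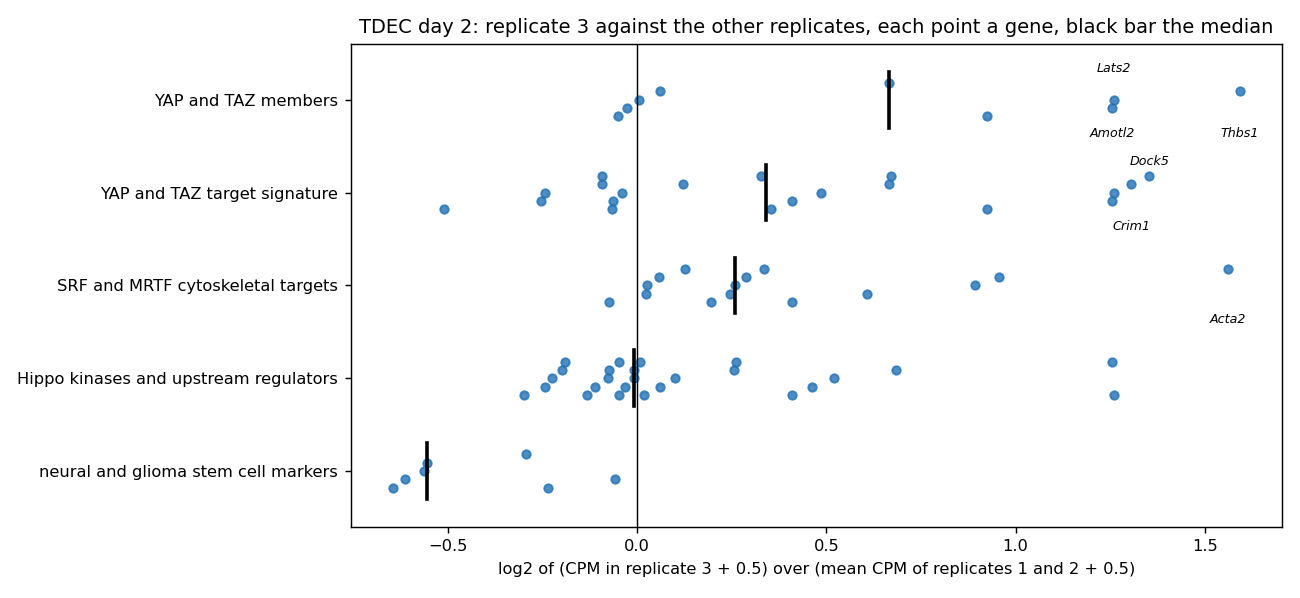
Replicate 3 of day 2 TDECs relative to the mean of replicates 1 and 2 (log2 ratio with 0.5 CPM added), with 1 point per gene in 5 gene lists and a black bar at the list median; the lists share some genes. Thbs1, Amotl2 and Lats2 lie above 1 among the 10 genes, and the 7 neural and glioma stem cell markers all lie below 0.

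Of the coactivator genes, Wwtr1 rose and Yap1 did not pass the test. Yap1 (chr9:7931999-8004596, minus strand) had 148, 146 and 144 CPM in 005, 152, 162 and 157 CPM on day 2, and 154, 165 and 154 CPM on day 5. Day 5 lay just above 005 in every library, but the log2 fold change of 0.12 (SE 0.06, adjusted p = 0.0836) missed the threshold. Wwtr1 (chr3:57455649-57575910, minus strand), the gene of TAZ, had 112, 114 and 107 CPM in 005, 159, 162 and 155 CPM on day 2, and 275, 265 and 267 CPM on day 5. The 3 times did not overlap and each step was upward. On day 2 the log2 fold change against 005 was 0.49 (adjusted p = 3.45e-04), under the 2-fold limit. By day 5 Wwtr1 had risen by 1.29 against 005 (SE 0.06, adjusted p = 1.71e-09), and it exceeded day 2 by 0.78 (adjusted p = 2.28e-07). Per exon length, Wwtr1 was 1.48 ± 0.037 times the Yap1 level in 005, 1.96 ± 0.063 times on day 2 and 3.31 ± 0.179 times on day 5 (SD, n = 3 each). These ratios rest on the lengths of all annotated exons, and in CPM Wwtr1 was below Yap1 in 005. Tead1 (chr7:112679318-112906807, plus strand), which carries the coactivators to DNA, had 200.4, 205 and 163 CPM in 005, 299, 290.3 and 289 CPM on day 2, and 219.9, 227 and 226 CPM on day 5. It was highest on day 2, by 0.61 against 005 (adjusted p = 4.49e-04), and day 5 was lower than day 2 (-0.37, adjusted p = 5.71e-05). Neither difference reached 2-fold.

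Tead1 is 1 of 4 TEAD genes, and the others were measured as well. Tead2 fell to 12.4 FPKM on day 5 (CPM per kilobase of exon), against 26.1 FPKM in 005, a log2 fold change of -1.06 (SE 0.07, adjusted p = 9.26e-08). Tead4 rose by 2.22 (SE 0.37, adjusted p = 2.02e-04) but reached only 0.595 FPKM on day 5, against 0.127 FPKM in 005. Tead1 was at 16.5 FPKM on day 5 and 14.0 FPKM in 005, so that Tead1 was above Tead2 in day 5 TDECs and below it in 005. The order in 005 rests on the lengths of all annotated exons, 13570 bases for Tead1 and 4788 bases for Tead2. In CPM, Tead1 was above Tead2 in 005 (190 against 125 CPM) and on day 5 (224 against 59.5 CPM). Tead3 was at 4.55 FPKM on day 5 and 3.52 FPKM in 005, with overlapping ranges. Vgll4, whose protein competes with YAP for TEADs, was at 72.3 CPM on day 5, against 111 CPM in 005, a log2 fold change of -0.60 (adjusted p = 4.32e-05) under the 2-fold limit. Of the 7 genes in this list that are not members, 4 passed the filter on day 5 against 005, and 1 was called higher and 1 lower, where 13.1% of all genes were called higher and 10.4% lower.

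**Figure D3:**
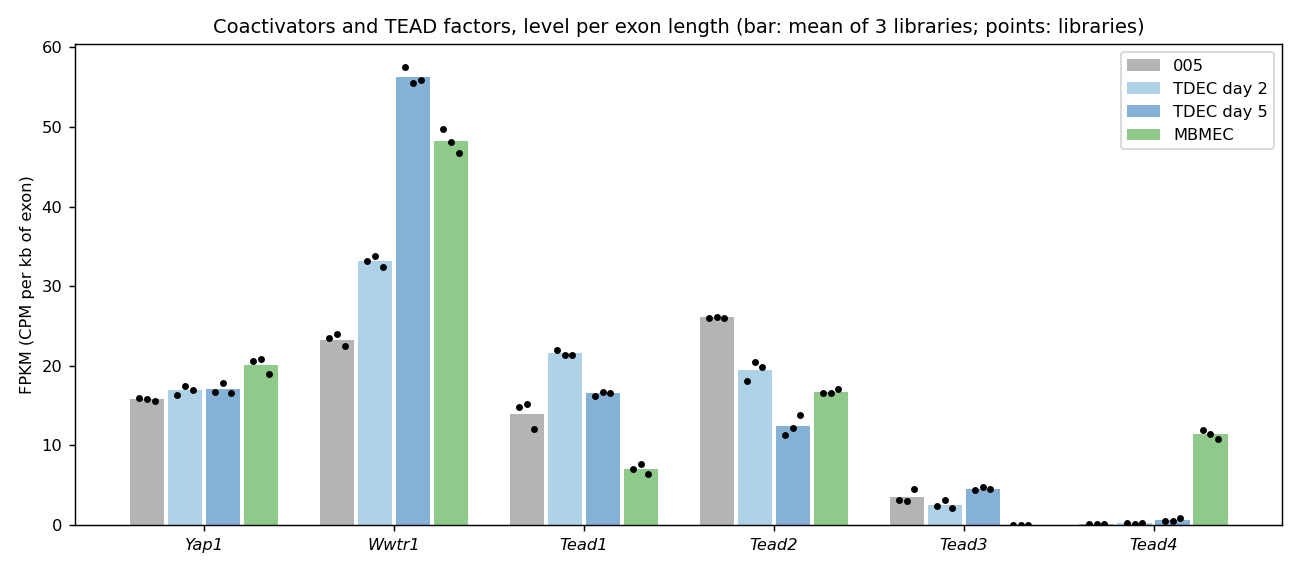
Levels of Yap1, Wwtr1 and the 4 TEAD genes per exon length (FPKM, CPM per kilobase of exon) in 005, day 2 TDECs, day 5 TDECs and MBMECs, with bars at the mean of 3 libraries and points for the libraries. Wwtr1 climbed over the time course to 56.3 FPKM on day 5, Tead2 declined to 12.4 FPKM, and Tead3 and Tead4 differed most between TDECs and MBMECs.

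Upstream of the coactivators little reached 2-fold. Among 23 Hippo kinases and regulators that are not members, all tested, 1 was called lower on day 2 against 005 and 1 higher on day 5 against 005, where 4.48% of all genes were called lower on day 2 and 13.1% higher on day 5. The first was Wtip, an AJUBA-family LIM protein, which fell to 11.7 CPM on day 2, against 23.9 CPM in 005 (log2 fold change -1.04, adjusted p = 3.74e-04). It then rose to 33.9 CPM on day 5, at 1.54 against day 2 (SE 0.12, adjusted p = 8.49e-07). Without replicate 3 of either 005 or day 2, Wtip was not called lower on day 2. Of the other genes of the family, Ajuba was lower on day 2 than in 005 and day 5 TDECs, while Limd1 was highest on day 2, with 158 CPM, against 118 CPM in 005 (log2 fold change 0.41, adjusted p = 1.48e-03) and 79.4 CPM on day 5. The gene that rose on day 5 was Frmd6, a FERM-domain protein that activates the kinase cascade, with 33.3 CPM on day 5 and 15.6 CPM in 005 (log2 fold change 1.10, adjusted p = 1.27e-06). Wwc1, the scaffold protein KIBRA that activates LATS kinases, had 343 CPM on day 5, against 185 CPM in 005, a log2 fold change of 0.90 (adjusted p = 4.3e-08).

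More genes of a wider set of targets rose than fell. Of 22 genes of a YAP and TAZ target signature, 5 are members, and of the other 17 genes 16 were tested on day 5 against 005. Of these 8 were called higher and 1 lower, against the backgrounds of 13.1% and 10.4% given above, with a median log2 fold change of 0.76. Igfbp3, which binds insulin-like growth factors, was the most abundant, with 4222, 4162 and 4187 CPM on day 5, against 540.1, 547 and 563 CPM in 005. Its log2 fold change was 2.94 (SE 0.05, adjusted p = 1.42e-12), and on day 2 it was already higher than in 005 by 2.18 (adjusted p = 3.43e-07). F3, tissue factor, which starts coagulation, rose by 2.50 (SE 0.08, adjusted p = 9.33e-11) and Gadd45a, a growth arrest and DNA damage gene, by 2.31 (SE 0.11, adjusted p = 3.86e-09). Gadd45a had 36.4, 36.7 and 25.5 CPM on day 2, against 31.8, 32.9 and 44.9 CPM in 005, and reached 182, 192 and 168 CPM on day 5. Ccdc80, a secreted matrix protein, was the 1 gene that fell on day 5 against 005 (log2 fold change -1.35, adjusted p = 5.76e-06). On day 2 against 005, 4 of 16 were called higher (Igfbp3, Myof, Dock5 and Nuak2) and 0 lower, where 5.35% of all genes were called higher and 4.48% lower. The count of 4 was 5 with F3 added when replicate 3 of 005 or of day 2 was left out. Unadjusted, 13 of the whole signature were higher and 1 lower on day 2, and DESeq2 called 6 higher and 0 lower. Between day 5 and day 2, 2 of 16 were called higher (F3 and Gadd45a) and 2 lower (Ccdc80 and Nuak2), and without replicate 3 of day 2 Crim1 was called higher too. In that comparison 11.1% of all genes were called higher and 9.35% lower, so both shares with all libraries were near those of all genes.

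The CCN family, to which Cyr61 and Ctgf belong, has 4 other genes. Nov was called higher on day 5 against 005 but had only 2.25 CPM there, against 0.891 CPM in 005. Wisp3 was called higher as well at 0.980 CPM on day 5, against 0.457 CPM in 005, and DESeq2 called 3 genes of the family higher where edgeR called 4. In that comparison 5 genes of the family were tested, and 13.1% of all genes were called higher. Wisp1 was called higher on day 2, with 14.4 CPM, against 7.01 CPM in 005 (log2 fold change 1.01, adjusted p = 1.71e-03), and was not called without replicate 3 of day 2. Wisp2 was too low to test. The family summed to 359 to 397 CPM on day 5, against 16.9 to 22.4 CPM in 005, and Cyr61 made up 95.3% of the sum of the group means on day 5, against 53.9% in 005.

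Many of the same stimuli act on genes of the actin cytoskeleton through SRF and its MRTF coactivators, so 17 of those were counted beside the members. On day 5 against 005, 2 of 15 tested were called higher (Tagln and Myl9) and 0 lower, where 13.1% of all genes were called higher and 10.4% lower, so the share called higher was near that of all genes. Unadjusted, 7 were higher and 5 lower, and DESeq2 called 2 higher and 0 lower. Without replicate 3 of 005, Myl9 was not called and the tropomyosin gene Tpm2 was. Tagln, the smooth muscle protein transgelin, had 5.45 CPM on day 5, against 1.64 CPM in 005 (log2 fold change 1.74, adjusted p = 9.9e-05). The whole list summed to 3263 to 3306 CPM on day 5, against 4620 to 4787 CPM in 005. The actin genes Actb (1274 CPM, against 2315 CPM in 005) and Actg1 (628 CPM, against 995 CPM) carried that difference. On day 5, 7 genes of the list lay above the 005 range and 5 below it, where 34.1% and 35.4% of all genes did. The sum is therefore not read as a decline of the whole list. The median log2 fold change of the tested genes of the list was 0.20, against 0.76 for the target signature without the members.

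Sertraline-treated TDECs differed from untreated ones in most target genes, and not all in 1 direction. Ctgf had 14.2, 16.9 and 12.3 CPM with sertraline, against 4.81, 5.01 and 4.48 CPM in untreated TDECs. The ranges lay far apart, and the log2 fold change was 1.57 (SE 0.15, adjusted p = 1.23e-06). Ankrd1 had 1.52, 2.61 and 2.24 CPM with sertraline, against 0.445, 0.328 and 0.244 CPM in untreated TDECs. It rose by 2.59 (SE 0.40, adjusted p = 1.25e-04), although untreated TDECs held only 12 counts over 3 libraries. Thbs1 had 348, 352 and 334 CPM with sertraline, against 192, 180.1 and 169 CPM untreated. Every treated library was above every untreated one, at a log2 fold change of 0.90 (SE 0.06, adjusted p = 9.92e-09), just under the 2-fold limit. Amotl2 had 91.9, 101 and 82.7 CPM with sertraline, against 59.7, 56.6 and 49.3 CPM untreated (log2 fold change 0.70, adjusted p = 7.11e-06). Lats2 had 123, 116 and 116 CPM with sertraline, against 72.5, 70.1 and 73.5 CPM untreated (0.68, adjusted p = 1.92e-07). Ajuba had 24.2, 22.9 and 25.2 CPM with sertraline, against 15.7, 18.5 and 18.2 CPM untreated (0.43, adjusted p = 2.82e-03). In each of these 3 genes the ranges did not overlap, and the difference passed on adjusted p but not on fold.

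Cyr61 was lower where its relative Ctgf was higher. Cyr61 had 213, 296 and 197 CPM with sertraline, against 369, 380.1 and 341 CPM untreated. Replicate 2, the library that stood apart in its group, was closest to the untreated cells, and the ranges did not overlap. The log2 fold change was -0.66 (SE 0.11, adjusted p = 1.54e-04), which does not reach 2-fold. Tead1 was lower too, with 183, 151 and 174 CPM with sertraline, against 219.9, 227 and 226 CPM untreated (-0.44, adjusted p = 7.11e-05). The coactivator genes overlapped between the groups. Yap1 had 156, 157 and 157 CPM with sertraline, against 154, 165 and 154 CPM untreated, a log2 fold change of -0.04 (SE 0.05, adjusted p = 0.575). Wwtr1 had 298, 246 and 298 CPM with sertraline, against 275, 265 and 267 CPM untreated (0.03, SE 0.07, adjusted p = 0.793).

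**Figure D4:**
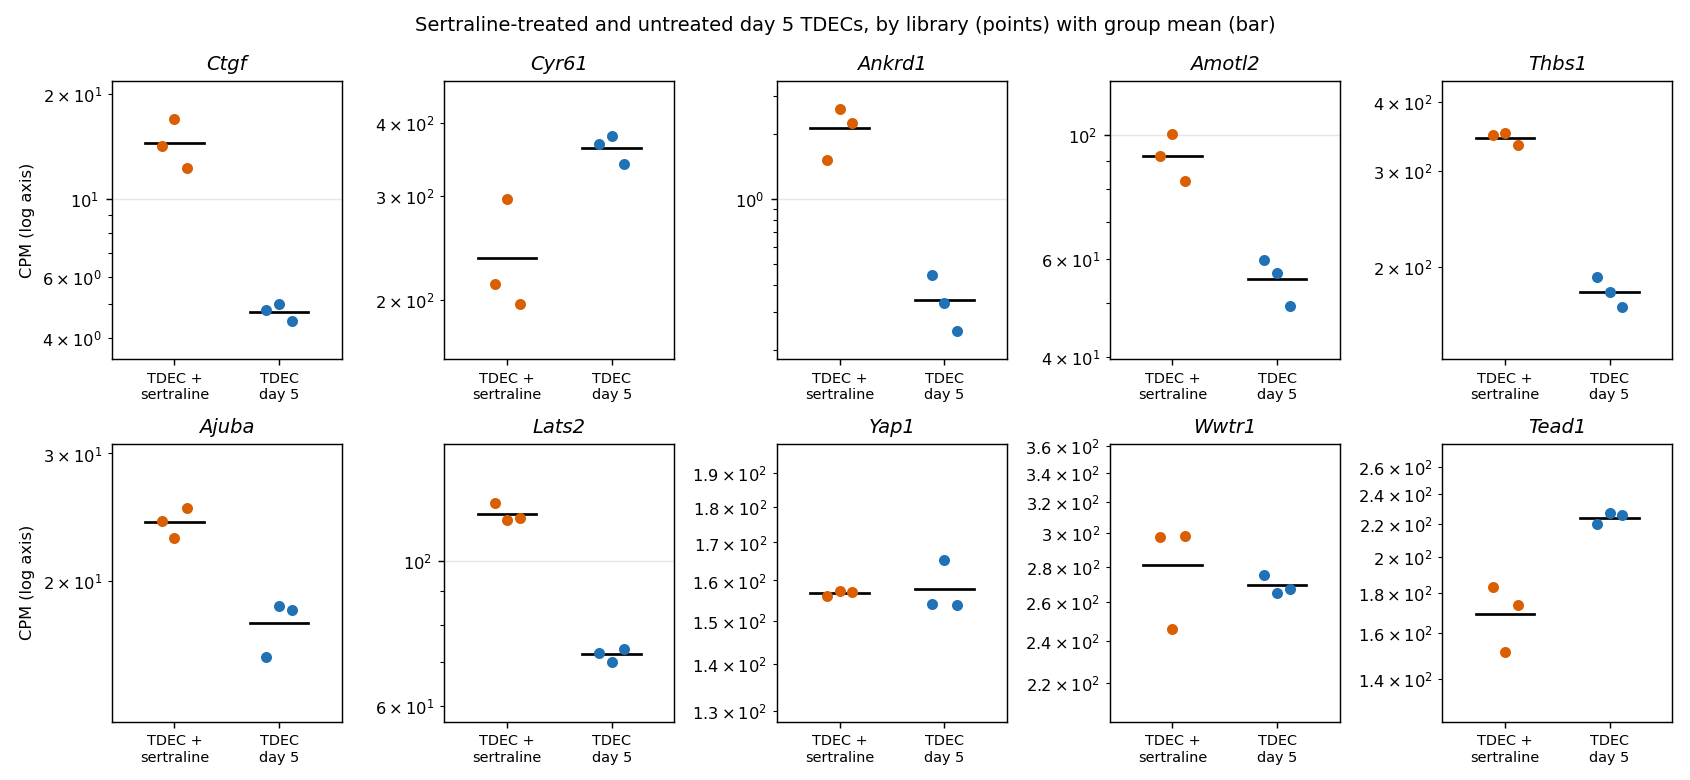
Levels of the 10 genes in sertraline-treated and untreated day 5 TDECs (CPM, log axes with a range of their own in each panel), with 1 point per library and a bar at the group mean. Ctgf, Ankrd1, Thbs1, Amotl2, Lats2 and Ajuba were higher in all treated libraries, Cyr61 and Tead1 were lower, and Yap1 and Wwtr1 overlapped.

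Of the 10 members, all tested, 2 were called higher with sertraline and 0 lower, where 1.82% of 15540 genes were called higher and 3.26% lower. Unadjusted, 6 were higher and 2 lower, and DESeq2 called 2 higher and 0 lower. The ranges of treated and untreated libraries did not overlap for 6 members that were higher and 2 that were lower, where 26.8% of all genes lay above and 20.7% below. Of the 16 tested signature genes that are not members, 1 was called higher and 1 lower. Ccdc80, which had fallen during differentiation, was higher with sertraline by 1.05 (adjusted p = 1.27e-05), and Nt5e, the ecto-enzyme CD73, fell (log2 fold change -1.17, adjusted p = 1.7e-05). A further 9 passed on adjusted p alone in the upward direction and 1 in the downward direction, for which the share of all genes was not counted. Among the 9 were Crim1 at 0.77 (adjusted p = 5.24e-08), Gadd45a at 0.57 (adjusted p = 3.17e-06) and Myof, a membrane repair protein, at 0.49 (adjusted p = 4.12e-05).

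Of the SRF and MRTF targets 3 of 16 were called higher with sertraline and 1 lower, where 1.82% of all genes were called higher and 3.26% lower. Myl9, a myosin light chain, had 22.9, 39.8 and 24.8 CPM with sertraline, against 8.46, 8.86 and 11.3 CPM untreated (log2 fold change 1.57, adjusted p = 7.55e-06). Acta2, smooth muscle actin, had 42, 82 and 62 counts, against 7, 5 and 14 counts (2.58, adjusted p = 3.81e-05). Fhl2, a LIM protein of actin-rich cells, was higher by 1.07 (adjusted p = 0.01) at levels of 3.26 CPM and 1.52 CPM. It was not called without replicate 2 of the sertraline group. Tagln fell to 2.56 CPM with sertraline, against 5.45 CPM in untreated TDECs. Among the 23 Hippo regulators that are not members 0 were called in either direction by edgeR's test. Of the list of 26 with the members, 10 were higher and 3 lower at an unadjusted p under 0.05, and DESeq2 called 0. Fat1, a giant cadherin that acts on the kinases, had 145 CPM with sertraline, against 226 CPM in untreated TDECs (log2 fold change -0.68, adjusted p = 6.59e-07). Markers of other cell types moved with the treatment as well. The 7 neural and glioma stem cell markers summed to 1281 to 1323 CPM with sertraline, against 1489 to 1558 CPM in untreated TDECs, and Prom1 fell (log2 fold change -1.60, adjusted p = 1.75e-10). Of the 7, 4 lay below the untreated range and 3 above it, among them Sox2 with 289 CPM, against 231 CPM. Fibroblast markers summed to 24.9 to 26.7 CPM with sertraline, against 20.3 to 23.3 CPM, and Col1a1 (1.29, adjusted p = 0.011) and Dcn (2.30, adjusted p = 6.99e-03) rose at low levels, Dcn with 66 counts over the treated libraries, against 11 counts. Mural cell markers overlapped in their sum, at 155 to 187 CPM with sertraline against 182 to 189 CPM, but Acta2 rose and Pdgfrb was higher by 0.77 (adjusted p = 2.21e-03). Of the 8 mural genes these 2 lay above the untreated range and 4 lay below it. The 4 were Notch3, with 140 CPM against 162 CPM, and the barely counted Rgs5, Kcnj8 and Abcc9. The share of counts from mitochondrial genes was 2.47% to 2.62% with sertraline, against 3.48% to 3.60%. The part of these differences in the target levels was not tested.

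**Figure D5:**
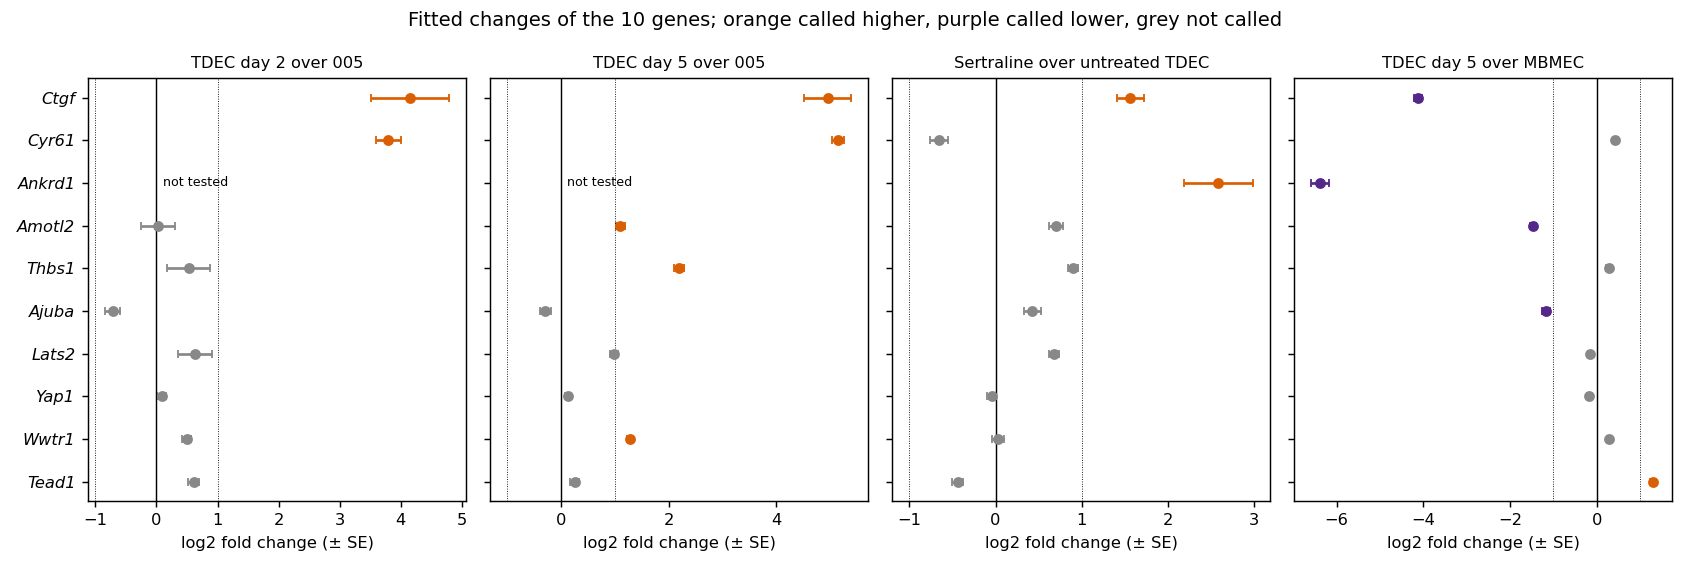
Fitted log2 fold changes of the 10 genes with their SE in 4 comparisons, each panel with its own scale. Orange points were called higher, purple points lower and grey points neither, the dotted lines mark 2-fold, and Ankrd1 was too low to test in the comparisons with 005. Cyr61 and Tead1 lie below 0 with sertraline, where Ctgf (1.57) and Ankrd1 (2.59) were called higher.

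Against MBMECs the target genes split. Ctgf had 4.81, 5.01 and 4.48 CPM in day 5 TDECs, against 78.9, 92.9 and 90.0 CPM in MBMECs, a log2 fold change of -4.13 (SE 0.10, adjusted p = 1.45e-24) that left TDECs at 5.46% of the MBMEC mean. Ankrd1 had 5, 4 and 3 counts in TDECs, against 442, 457 and 434 counts in MBMECs, at -6.38 (SE 0.20, adjusted p = 6.34e-22). Amotl2 was lower in TDECs (log2 fold change -1.47, SE 0.07, adjusted p = 3.73e-18), with 55.2 ± 5.33 CPM in TDECs and an MBMEC level of 160.1 ± 12.3 CPM (SD, n = 3 each). Ajuba was lower as well (-1.17, SE 0.09, adjusted p = 3.67e-13), with 17.5 ± 1.55 CPM in TDECs against 41.2 ± 1.25 CPM in MBMECs. Cyr61 and Thbs1 were not lower. Cyr61 had 369, 380.1 and 341 CPM in TDECs, against 249, 313 and 287 CPM in MBMECs, without overlap (log2 fold change 0.43, adjusted p = 2.3e-07, under the 2-fold limit). Thbs1 had 192, 180.1 and 169 CPM in TDECs, against 136, 185 and 145 CPM in MBMECs (0.28, adjusted p = 1.08e-03). The ranges overlapped only through replicate 2 of MBMECs. Lats2 stood at 85.9% of the MBMEC mean (-0.15), Yap1 at 84.6% (-0.18) and Wwtr1 at 117% (0.29). These 3 passed on adjusted p and lay far under the 2-fold limit. Tead1 was the 1 member called higher, with 219.9, 227 and 226 CPM in TDECs, against 96.2, 103 and 87.5 CPM in MBMECs (log2 fold change 1.30, SE 0.05, adjusted p = 1.07e-18). The TAZ to YAP ratio per exon length was 3.31 ± 0.179 in TDECs and 2.40 ± 0.078 in MBMECs (SD, n = 3 each).

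Of 10 members 1 was called higher and 4 lower in TDECs than in MBMECs, where 28.1% of 16135 genes were called higher and 20.8% lower. With sertraline, Ctgf reached 16.6% and Ankrd1 7.03% of the MBMEC mean, Cyr61 83.2%, and Thbs1 222%. Tead3 had 1091 counts in TDECs and 0 in MBMECs, which is at least 450-fold higher in TDECs (0 being replaced by 3 counts summed over the MBMEC libraries), and Tead4 was lower in TDECs (log2 fold change -4.18), at 0.595 FPKM against 11.4 FPKM. Among the 23 other Hippo genes 5 were called higher and 6 lower. Wwc1 had 343 CPM in TDECs, against 0.381 CPM in MBMECs, and Frmd6 33.3 CPM in TDECs, against 315 CPM in MBMECs. Of the 16 tested signature genes that are not members 11 were called higher, where 28.1% of all genes were, and 4 lower. F3 had the smallest p of the higher genes, with 121 CPM in TDECs, against 1.02 CPM in MBMECs, while Fjx1 had 1633 counts in TDECs and 0 in MBMECs, at least 674-fold higher in TDECs on the same floor. The lower genes were Ptpn14, Dock5, Myof with 84.8 CPM, against 787 CPM, and Crim1 with 93.7 CPM, against 663 CPM.

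Before differentiation the distance to MBMECs was wider in the target genes among the members, except in Ajuba. Of the 10 members 7 were called lower in 005 than in MBMECs and 1 higher, where 18.7% of 15992 genes were called lower and 25.3% higher. The log2 fold change was -9.12 for Ctgf and -7.83 for Ankrd1, both with under 10 counts in 005, -4.75 for Cyr61, -2.59 for Amotl2, -1.94 for Thbs1, -1.16 for Lats2 and -1.02 for Wwtr1. The adjusted p of these 7 ran from 2.2e-12 (Ctgf) to 1.28e-08 (Thbs1). Cyr61 stood at 3.62% of the MBMEC mean in 005, and Thbs1 at 25.5%. Ajuba was closer to MBMECs in 005 (52.7% of their mean) than in day 5 TDECs (42.4%). Of 15 tested signature genes that are not members, 8 were called higher and 5 lower in 005, against the backgrounds given above. Their median log2 fold change against MBMECs was 1.37 in 005, and 2.20 over the 16 tested in day 5 TDECs. The median of that list was therefore not further from MBMECs before differentiation. Tead1 was called higher in 005 at 1.02, a call that was lost when any 1 of replicates 1 and 2 of 005 or replicate 3 of MBMECs was left out (0.96 to 0.98). The call of Wwtr1 was lost without replicate 3 of 005 or replicate 1 of MBMECs, at -0.992 and -0.998.

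Over all 5 groups the order of the levels differed from gene to gene. Ctgf ran MBMEC, sertraline, day 5, day 2 and 005 from high to low, with no neighbors overlapping. Cyr61 was highest in day 5 TDECs, followed by MBMECs and sertraline-treated TDECs, which overlapped each other, then day 2 and 005. Thbs1 and Lats2 were highest with sertraline and lowest in 005. Among their neighbors, day 5 TDECs and MBMECs overlapped in Thbs1, day 5 and day 2 in Lats2, and day 2 and 005 in both. Yap1 was highest in MBMECs and lowest in 005, with the 3 TDEC groups between them overlapping each other. Tead1 alone was lowest in MBMECs. The genes most like 5 of the members were ranked over the 15 libraries among 10909 genes, by the root mean square difference of centred log2 CPM. The nearest were Synpo (0.77), Pdgfb (0.89) and Serpinh1 (0.97) to Ctgf, so that none came close, and Fads3 (0.49), Tgif1 (0.50) and Otud1 (0.51) to Thbs1. They were Pax2, Mafk (0.28 each) and Shb (0.30) to Amotl2, Tollip, Tmed10 and Ciao1 (0.070 to 0.076) to Yap1, and Dlg1 (0.12), Ppp2r5a and Got1 (0.13 each) to Wwtr1.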

How the data were processed

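Poly(A) RNA libraries were prepared with a strand-specific kit from total RNA, and the authors deposited 1 table of raw counts of reads per gene for 49585 genes and 15 libraries, with no normalization. Tools named in the processing notes of the submitters are bcl2fastq 2.19 and Trimmomatic 0.38 for the reads, HISAT2 2.1.0, and featureCounts 1.6.3, and the build is mm10. The annotation release, the strand setting and the treatment of reads with several alignments are not given in the sources used here, so counts of close paralogs or of overlapping genes may share reads. Libraries were grouped by their labels.

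Low genes were removed by filterByExpr (minimum count 10), and libraries were scaled by TMM and compared in R 4.3.3 with edgeR 4.0.16 (glmQLFit and glmQLFTest, two-sided, Benjamini-Hochberg over all genes tested) in 6 comparisons of 6 libraries each. An SE is the log2 fold change divided by the square root of the F statistic. The code was tested on simulated data. Gene positions are those of the table. Exon lengths came from GENCODE M21, in which 91.0% of the table's genes have the same position; Ajuba, Ankrd1 and Lats2 do not. Alternatives were DESeq2 1.42.0, plain library totals, other filters and thresholds, a replicate block, and leaving out each library in turn. Leaving out both libraries numbered 3, and counting lists without a library that stood apart, were chosen after seeing the data.

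The members and the 11 gene lists, cell type markers included, were chosen with earlier results of these data known. Named were all members and, in each list described, up to 3 genes per direction that passed the test, by smallest p. Any list gene could be named where a count of 5 or fewer needed it, and others (Wwc1, Vgll4, Fat1, Crim1 and Dock5 among them) were chosen after their values were seen. For 5 members the 3 genes nearest in pattern were named. One marker of the neural and glioma stem cell list is not reported here, and the list was counted without it. A column of functional annotation in the table was not used.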

Additional observations from a re-analysis of the deposited data

How the results depend on the processing

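The counts of members called held their value or moved by at most 1.5 times under DESeq2 and plain library totals. With a minimum count of 50, the higher calls were 1 instead of 2 both on day 2 against 005 and with sertraline, because Ctgf or Ankrd1 no longer passed the filter. Without the 2-fold limit the higher and lower calls were 4 and 1 on day 2 against 005, 6 and 1 on day 5 against day 2, and 6 and 2 with sertraline. By the same rule 1 member was lower on day 5 against 005, and 4 were higher in TDECs than in MBMECs. Shares of all genes under that rule were not counted, so these counts are not read as an excess. The call of Tead1 in 005 against MBMECs was 0 without a filter, and 0 to 1 over the fits that left out 1 library. Between day 5 and day 2 the call of Amotl2 was lost without replicate 1 or 2 of day 2 or replicate 1 of day 5 (0.83 to 0.998). Directions turned where values were near 0 or where replicate 3 of day 2 decided them. Amotl2 on day 2 against 005 was -0.043 by plain totals and -0.48 without both libraries numbered 3, where Thbs1 was -0.29. Over the fits without 1 library it ranged from -0.53 to 0.28, and Thbs1 from -0.22 to 0.82, in both genes lowest without replicate 3 of day 2. Yap1 by plain totals was -0.029 on day 5 against day 2, -0.0082 against 005 and 0.029 with sertraline. Over the fits without 1 library, Yap1 on day 5 against day 2 ranged from -0.015 to 0.041 (-0.0079 without replicate 1 of day 2). Wwtr1 with sertraline ranged from -0.016 to 0.12 (-0.013 without replicate 1 of the sertraline group). Plain totals moved the median of all genes to -0.14 on day 5 against 005, and to 0.30 in 005 against MBMECs, where it was -0.01 and 0.09 by TMM. With the fitted changes shifted in this way, Amotl2 on day 5 against 005 was 0.97, and Lats2 (-0.94) and Wwtr1 (-0.80) in 005 against MBMECs fell short of 2-fold.

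No clear pairing by replicate number was detected. The correlations of same-numbered deviations were -0.16 to -0.10 between day 2 and 005, and between -0.03 and 0.17 in the other comparisons. With 3 libraries in a group, such correlations cannot exclude shared cultures or days. Every day 5 library correlated best with its own number in the comparison with day 2 (3 of 3), at correlations near 0.02, and 0 to 2 of 3 did so elsewhere. With a replicate block each count of members called was the same, for example 5 higher on day 5 against 005, and Amotl2 on day 2 against 005 was -0.084. Depth limits Ctgf in 005 and Ankrd1 outside MBMECs most.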
